A study of Mus musculus with 9 samples.

Results

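Csrp3, Fhl1, Fhl2, Fhl3, Ankrd1, Ankrd2 and Ankrd23 encode LIM-domain and ankyrin-repeat proteins that link the sarcomere to the nucleus. The 7 genes were chosen by name, from a table of raw counts in adult mouse quadriceps and heart. That table lists 35745 RefSeq transcripts of 24537 gene symbols, and 13 of its transcripts belong to the 7 genes. All 13 passed the count filter of more than 5 reads in at least 2 libraries. RNA sequencing was done on quadriceps and heart of male C57Bl6 mice (C57Bl/6JCrl in the study's methods) that had sham surgery, the control operation without narrowing of the aorta, at 8 weeks of age and were killed 12 weeks later. Each tissue was represented by 3 libraries, and no transgene or further treatment is named for either group. The series also holds 3 quadriceps libraries from mice with transverse aortic constriction (TAC). Their table holds 587 rows and none for the 7 genes, so the response to TAC is not analysed here. The labels do not tie libraries to individual animals or heart chambers, and p-values therefore measure the spread between these libraries only.

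In striated muscle, LIM-domain proteins of this kind sit at the Z-disc or along titin, the giant elastic protein of the sarcomere, and also enter the nucleus as cofactors of transcription. The muscle ankyrin repeat proteins Ankrd1, Ankrd2 and Ankrd23 bind the N2A segment of titin and the protease calpain 3, and their genes are known to respond to stretch, overload or denervation. Csrp3, also called muscle LIM protein, is mutated in some forms of human cardiomyopathy, and Fhl1 in several skeletal myopathies.

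Library totals ranged from 23383452 to 38382751 counts, and quadriceps library 3 was the shallowest. The tissue labels were checked with myosin heavy chain genes. Myh6, the cardiac alpha isoform, had 768767 to 933029 counts in the hearts and 59 to 82 in the quadriceps. Myh4, the fast type IIb isoform, had 32 to 50 counts in the hearts and 559634 to 726121 in the quadriceps. In bulk tissue, fewer cells of a type and less RNA per cell cannot be told apart.

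In the quadriceps, Fhl1, Fhl3, Ankrd2 and Ankrd23 were higher than in the heart and Csrp3, Fhl2 and Ankrd1 were lower. All 7 members passed in edgeR (quasi-likelihood test, p-values adjusted after Benjamini and Hochberg across 24280 tested transcripts, limit 0.05), 4 upward and 3 downward. The background was wide, since 66.6% of all tested transcripts passed, 32.2% upward and 34.4% downward. The study called a gene higher in the quadriceps at a log2 fold change over 2 and an unadjusted p under 0.05, and this limit was applied here in both directions. The same 4 and 3 members also passed it. It was met by 15.6% of transcripts, 7% upward and 8.64% downward. Normalised values of the tissues did not overlap for any of the 7 members, as for 72.6% of all tested transcripts.

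**Figure D1:**
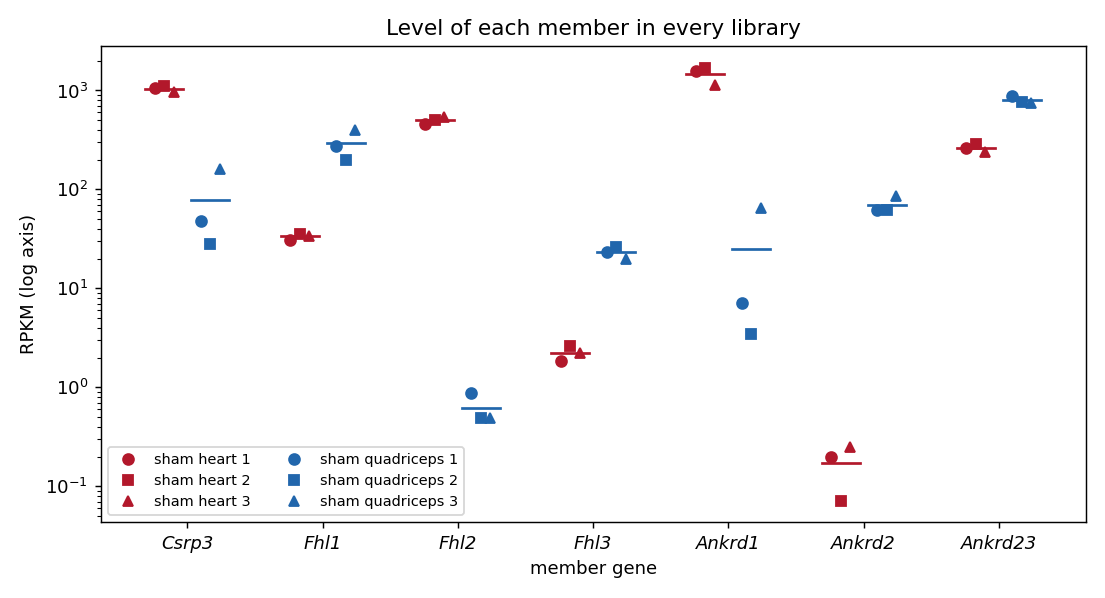
RPKM of each member gene (vertical log axis) in the 3 sham heart libraries (red) and 3 sham quadriceps libraries (blue), where bars mark the means and symbols the library numbers. Heart and quadriceps did not overlap for any member, and the quadriceps points of Csrp3 and Ankrd1 are the most spread out, with library 3 on top at 160 and 64.5 RPKM.

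The upstream sequences of Ankrd1, Fhl1 and Fhl2 are shown. Ankrd1 varied most between quadriceps libraries, and Fhl1 and Fhl2 have transcripts with different first exons that the deposited table counts separately. Csrp3 and Ankrd23 also have windows at different starts, which are not printed. Every printed window holds a motif marked in capitals, whereas the other Fhl1 window holds none and is left out. Each line gives the 250 bases before a RefSeq transcription start in build GRCm38.p6, written 5′ to 3′ on the strand of the gene. Capitals mark MCAT motifs (CATTCC or its complement GGAATG, the element bound by TEAD factors), CArG boxes (bound by SRF) and MEF2 sites. Ankrd1 lies at chr19:36119845-36120094 on the minus strand. The window before the upstream first exon of Fhl2 is chr1:43196762-43197011 and that before the downstream first exon is chr1:43163962-43164211, both on the minus strand. The Fhl1 window, chrX:56779433-56779682 on the plus strand, lies just before the first exon of the transcript NM_001077362.
Ankrd1: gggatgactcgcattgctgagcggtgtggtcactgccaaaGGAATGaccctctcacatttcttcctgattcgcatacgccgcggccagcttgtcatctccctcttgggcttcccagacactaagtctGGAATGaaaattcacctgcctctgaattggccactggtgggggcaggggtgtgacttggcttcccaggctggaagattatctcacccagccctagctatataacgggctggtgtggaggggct
Fhl2 upstream start: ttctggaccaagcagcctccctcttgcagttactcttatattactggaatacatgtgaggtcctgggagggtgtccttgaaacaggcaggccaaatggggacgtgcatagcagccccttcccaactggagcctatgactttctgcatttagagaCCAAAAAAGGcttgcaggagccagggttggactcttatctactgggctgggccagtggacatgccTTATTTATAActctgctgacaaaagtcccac
Fhl2 downstream start: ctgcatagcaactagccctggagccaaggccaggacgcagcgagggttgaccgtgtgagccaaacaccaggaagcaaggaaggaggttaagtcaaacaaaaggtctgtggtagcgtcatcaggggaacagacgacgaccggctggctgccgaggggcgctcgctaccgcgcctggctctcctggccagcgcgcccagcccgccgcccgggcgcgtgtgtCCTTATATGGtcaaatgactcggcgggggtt
Fhl1: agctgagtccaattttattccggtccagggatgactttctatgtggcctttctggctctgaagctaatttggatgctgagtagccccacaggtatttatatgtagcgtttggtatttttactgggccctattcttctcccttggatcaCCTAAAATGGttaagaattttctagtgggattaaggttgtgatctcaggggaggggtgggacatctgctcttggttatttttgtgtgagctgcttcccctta

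The 7 genes had 11 such windows. MCAT letters were found in 2 of the 11, in Ankrd1 at 210 and 123 bases before the start and in Ankrd23 at 120 bases, and in 12.6% of all 32851 windows of this length. CArG letters were found in 3 of the 11, which are both Fhl2 windows, 96 and 31 bases before their starts, and 1 of 2 Fhl1 windows, the one printed, 102 bases before the start. They occurred in 1.47% of all windows. The only MEF2 match was in the upstream Fhl2 window, 31 bases before the start, against 2.92% of all windows. E-boxes (CANNTG, the letters bound by myogenic factors such as MyoD) were found in 9 of 11 windows of 6 genes, against 66.2% of all windows. Motifs were searched on both strands, and no overlap between motifs was removed. A match of letters is a description of the window and not a binding site.

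Csrp3, the Z-disc LIM protein that binds telethonin and acts as a cofactor of MyoD, lies on chromosome 7 at 48830398 to 48848033 on the minus strand. Counts were 34863, 37763 and 28368 in heart libraries 1 to 3 and 1397, 824 and 3331 in quadriceps libraries 1 to 3. Per length, as reads per kilobase per library total (RPKM), this was 1058, 1107 and 964 RPKM in the heart and 48.1, 28.1 and 160 RPKM in the quadriceps. The tissues did not overlap, and quadriceps library 3 stood above the other quadriceps libraries. After TMM scaling the heart had 714 ± 47.5 normalised counts (CPM, scaled to library size; SD, n = 3) and the quadriceps 91.4 ± 84.3 (SD, n = 3), a 7.82-fold difference of the means. The log2 fold change, quadriceps over heart, was -2.97 (SE 0.55; edgeR's quasi-likelihood test, adjusted p = 0.00102). Without quadriceps library 3 it was -4.04 (SE 0.21).

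Fhl2, the LIM-only protein that binds the cardiac N2B segment of titin and acts as a transcriptional cofactor, lies on chromosome 1 at 43123074 to 43196984 on the minus strand. Its counts in the hearts were 24196, 27367 and 25178, against 40, 23 and 16 in the quadriceps. This was the clearest heart gene of the 7, with 463, 506 and 540 RPKM in the hearts and 0.869, 0.495 and 0.486 RPKM in the quadriceps. Means were 503 ± 38.3 RPKM in the heart and 0.617 ± 0.219 RPKM in the quadriceps (SD, n = 3 each). Normalised CPM differed 491-fold, with a log2 fold change of -8.90 (SE 0.21; edgeR, adjusted p = 2.22e-09).

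Fhl1, its relative that is abundant in skeletal muscle and also binds titin, lies on the X chromosome at 56731787 to 56793346 on the plus strand. Fhl1 had 2663, 3193 and 2630 counts in the hearts and 20894, 15311 and 21681 in the quadriceps. Per length, the hearts had 31.0, 35.8 and 34.2 RPKM and the quadriceps 276, 200 and 399 RPKM. All quadriceps libraries were above all hearts, and library 3 was again the highest. Normalised CPM differed 14.6-fold, with a log2 fold change of 3.87 (SE 0.24; edgeR, adjusted p = 9.13e-07).

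Fhl3, a LIM-only protein that binds actin and is known as a regulator of myogenic differentiation, lies on chromosome 4 at 124700701 to 124708611 on the plus strand. Counts of 114, 167 and 123 in the hearts compared with 1292, 1436 and 772 in the quadriceps. Its level was 2.21 ± 0.38 RPKM in the heart and 23.1 ± 3.17 RPKM in the quadriceps (SD, n = 3 each). The tissues did not overlap, and the log2 fold change was 4.14 (SE 0.17; edgeR, adjusted p = 6.43e-08), a 17.6-fold difference of mean CPM.

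Ankrd1, or cardiac ankyrin repeat protein, is a cofactor of transcription that is known to rise in the strained heart. It lies on chromosome 19 at 36111961 to 36120099 on the minus strand. The heart libraries held 101731, 114651 and 65364 counts, while the quadriceps libraries held 405, 199 and 2646. Per length, the hearts had 1565, 1703 and 1126 RPKM and the quadriceps 7.07, 3.44 and 64.5 RPKM. No quadriceps library reached the hearts, although library 3 was far above the other quadriceps libraries. Mean CPM was 1979 ± 402 in the heart and 57.6 ± 79.7 in the quadriceps (SD, n = 3 each), so the SD in quadriceps exceeded its mean. The means differed 34.4-fold, with a log2 fold change of -5.11 (SE 1.0; edgeR, adjusted p = 0.00143). Without quadriceps library 3 the log2 fold change was -7.39 (SE 0.36; edgeR, adjusted p = 2.22e-06).

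Ankrd2, a muscle ankyrin repeat protein known from slow and stretched skeletal muscle, lies on chromosome 19 at 42036000 to 42045110 on the plus strand. It was near the floor in the hearts, with 8, 3 and 9 counts, and had 2207, 2223 and 2181 counts in the quadriceps. The quadriceps had 62.1, 61.9 and 85.6 RPKM, while the hearts had 0.198, 0.0718 and 0.25 RPKM. The ratio of mean CPM was 680, with a log2 fold change of 9.41 (SE 0.30; edgeR, adjusted p = 1.18e-08), which rests on 20 heart counts in all. With TMM this was the largest of the 7 in size, but with library totals it was 8.66, smaller in size than the -9.65 of Fhl2.

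Ankrd23, or diabetes-related ankyrin repeat protein, lies on chromosome 1 at 36530188 to 36536883 on the minus strand. The hearts had 22291, 25583 and 18068 counts and the quadriceps 65275, 58067 and 40456. Per length, this was 262, 291 and 238 RPKM in the heart and 871, 767 and 754 RPKM in the quadriceps, so the gene was high in both tissues. Mean CPM was 466 ± 43.9 in the heart and 2371 ± 74.8 in the quadriceps (SD, n = 3 each), a 5.09-fold difference without overlap. The log2 fold change was 2.35 (SE 0.13; edgeR, adjusted p = 4.58e-07), the smallest of the 7. With library totals in place of TMM it was 1.60, under the size limit of 2, while the adjusted p was 1.02e-05. That scaling moved the median log2 fold change of all tested transcripts from -0.06 to -0.80.

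**Figure D2:**
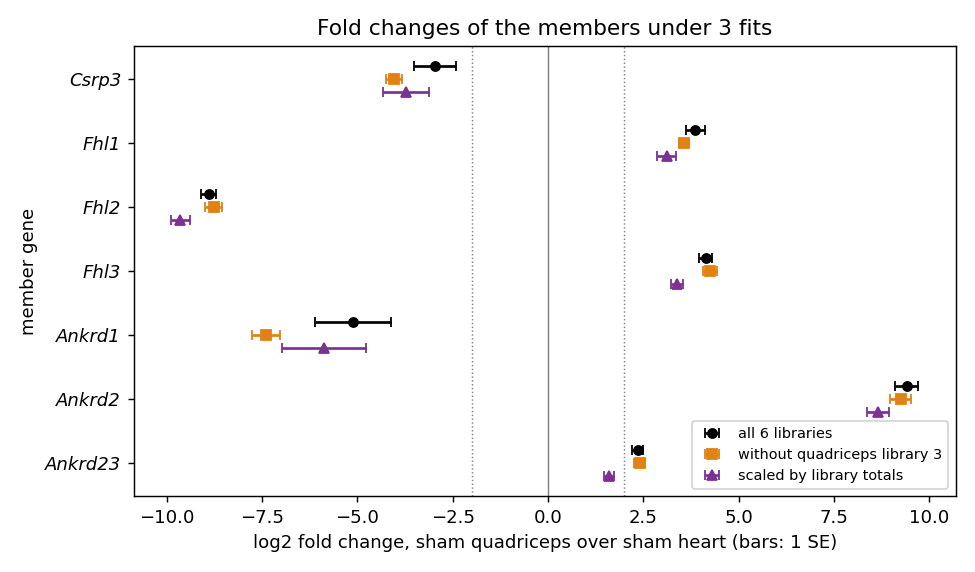
Log2 fold change of each member (sham quadriceps over sham heart, horizontal axis) with bars of 1 SE from 3 edgeR fits: all 6 libraries, without quadriceps library 3, and scaled by library totals; dotted lines mark the size limit of 2. Csrp3 and Ankrd1 move to -4.04 and -7.39 without library 3, and Ankrd23 falls inside the limit, at 1.60, with library totals.

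In the heart, the order of levels per length was Ankrd1, Csrp3, Fhl2, Ankrd23, Fhl1, Fhl3 and Ankrd2, and no neighbours in this order overlapped between libraries. Ankrd1 ranked 14 and Csrp3 ranked 16 by mean RPKM among 24537 genes, 1 transcript each. Fhl2 ranked 48 and Ankrd23 ranked 104. In the quadriceps, the order was Ankrd23, Fhl1, Csrp3, Ankrd2, Ankrd1, Fhl3 and Fhl2. There the ranges of Csrp3 and Ankrd2, of Ankrd2 and Ankrd1, and of Ankrd1 and Fhl3 overlapped. Within each quadriceps library Ankrd2 lay above Ankrd1, at 62.1 against 7.07, 61.9 against 3.44 and 85.6 against 64.5 RPKM. The order of Csrp3 and Ankrd2, and that of Ankrd1 and Fhl3, changed between libraries. Csrp3 and Ankrd2 both lay above Fhl3 in every library. Ankrd23 ranked 22 and Fhl1 ranked 56 in the quadriceps, whereas Fhl2 ranked 10024. The RPKM values are scaled by library totals, so these are ranks within a tissue.

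In the muscle ankyrin repeat and Fhl families, but not in the Csrp family, the gene with the largest share differed between tissues. Of the summed RPKM of the muscle ankyrin repeat family, Ankrd1 made up 84.5 ± 1.73% in the heart and 2.77 ± 3.79% in the quadriceps (SD, n = 3 each). In quadriceps libraries 1 to 3 its share was 0.752, 0.413 and 7.13%, and the mean without library 3 was 0.582%. Ankrd23 made up 15.5 ± 1.73% in the heart and 89.4 ± 5.21% in the quadriceps. Ankrd2 made up 0.0109 ± 0.0074% in the heart and 7.83 ± 1.48% in the quadriceps. For each of the 3 genes the tissues did not overlap, and the exact two-sided permutation test gave p = 0.1 for n = 3 against 3, the smallest value it can give. The family's summed level was 1728 ± 326 RPKM in the heart and 893 ± 55.0 RPKM in the quadriceps. RPKM is scaled by library totals, which moved the median log2 fold change of all tested transcripts from -0.06 with TMM to -0.80. Whether the summed level differs between the tissues was therefore not tested.

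Of the summed RPKM of Fhl1, Fhl2 and Fhl3, Fhl2 made up 93.3 ± 0.37% in the heart and 0.208 ± 0.0874% in the quadriceps (SD, n = 3 each). Fhl1 made up 6.25 ± 0.32% in the heart and 91.8 ± 3.44% in the quadriceps. Fhl3 accounted for 0.41 ± 0.058% in the heart and 8.01 ± 3.39% in the quadriceps. The exact permutation p was 0.1 for each of the 3, again the smallest possible with n = 3.

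Csrp3 was compared in the same way with Csrp1 and Csrp2, its relatives in smooth muscle and other tissues. It made up 97.4 ± 0.57% of their sum in the heart and 86.5 ± 8.29% in the quadriceps (SD, n = 3 each; exact permutation p = 0.1, the smallest possible). The Csrp3 share was 84.7, 79.2 and 95.5% in quadriceps libraries 1 to 3. Csrp3 was thus the main gene of its family in both tissues, although the summed level was 1070 ± 68.6 RPKM in the heart and 86.7 ± 71.0 RPKM in the quadriceps. These sums are likewise scaled by library totals. The share of Csrp2 overlapped between tissues (exact permutation p = 0.2, n = 3 each).

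**Figure D3:**
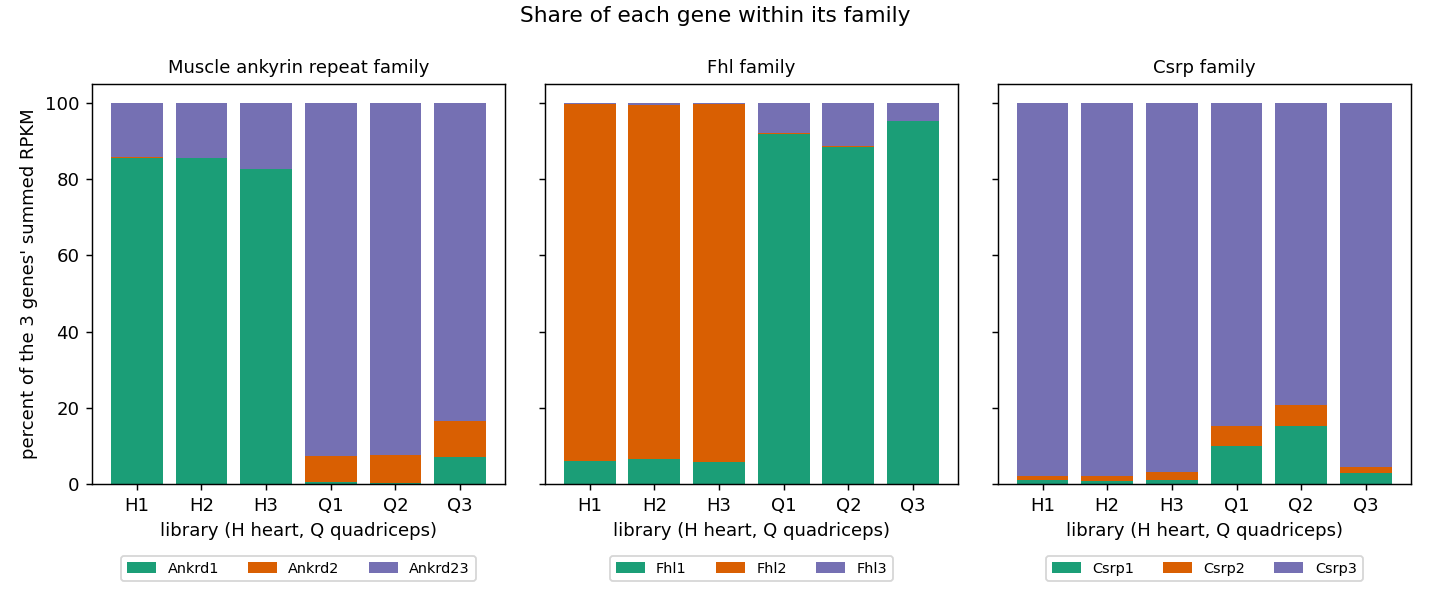
Share of each gene in the summed RPKM of its family (vertical axis, percent) in heart libraries H1 to H3 and quadriceps libraries Q1 to Q3. The largest share is that of Ankrd1 in the heart (mean 84.5%) and Ankrd23 in the quadriceps (89.4%), and of Fhl2 (93.3%) and Fhl1 (91.8%) likewise, while Csrp3 is the largest share in all 6 libraries.

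The spread within a tissue differed strongly between members. In the heart, the coefficient of variation of CPM was 6.65% for Csrp3, 6.45% for Fhl1, 7.18% for Fhl2 and 9.43% for Ankrd23, against a median of 7.62% over all tested transcripts. It was 16.2% for Fhl3, 20.3% for Ankrd1 and 53.1% for Ankrd2, whose heart counts were single digits. In the quadriceps it was 138% for Ankrd1, 92.3% for Csrp3 and 35% for Fhl1, against a median of 16.2%. Ankrd23 had 3.16%, the lowest of the 7.

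Quadriceps library 3 stood apart for several members. Its CPM exceeded the mean of libraries 1 and 2 by 3.68 on the log2 scale for Ankrd1, 2.13 for Csrp3 and 0.80 for Fhl1. The same value was 0.50 for Ankrd2, -0.08 for Ankrd23, -0.30 for Fhl3 and -0.39 for Fhl2. Among 14906 genes with 1 transcript each, 0.00671% were at least as high as Ankrd1 by this measure, 0.0805% as high as Csrp3 and 2.27% as high as Fhl1. Each share counts the gene itself, and Ankrd1 was the highest of all these genes. Ankrd1 and Csrp3 were the 2 members at least 2 times both other quadriceps libraries, as were 2.63% of all genes. The measure was chosen after the values were seen, and no test was made of it.

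Some listed genes moved with the library. Among the 28 tested LIM-domain relatives, Lmcd1, Pdlim3 and Nrap rose most in library 3, by 1.42, 1.16 and 1.01 on the same log2 scale. The other relatives went both ways, from -0.71 for Ajuba to 0.79 for Tgfb1i1. All 5 tested macrophage and leukocyte markers exceeded the mean of libraries 1 and 2 there, from 0.21 for Ptprc to 1.82 for Cd68. Ptprc was nevertheless highest in library 1, with 2.50, 0.79 and 1.92 CPM in quadriceps libraries 1 to 3. The 6 listed markers, with the untested Cd3e, summed to 24.0, 16.4 and 27.2 RPKM in quadriceps libraries 1 to 3. All 5 adipocyte markers were lower there, from -2.51 for Adipoq to -0.73 for Fabp4, and all were highest in library 1. Their sum was 561, 245 and 220 RPKM in quadriceps libraries 1 to 3, most of it from Fabp4, with 520, 231 and 215 RPKM. Adipoq had 29.5, 10.5 and 3.28 RPKM. The part of these cells in the values of Ankrd1, Csrp3 and Fhl1 was not tested. The 8 cardiomyocyte markers went both ways in library 3, with Myh6 (0.14) and Ryr2 (0.30) higher and the other 6 lower, from -0.24 for Myl7 to -1.25 for Nppa. Their sum was 74.5, 130 and 50.6 RPKM in quadriceps libraries 1 to 3, most of it from Actc1, with 68.9, 126 and 47.4 RPKM. The 8 slow-twitch markers also went both ways, from -0.27 for Tpm3 to 0.26 for Myh7, and summed to 765, 699 and 666 RPKM.

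**Figure D4:**
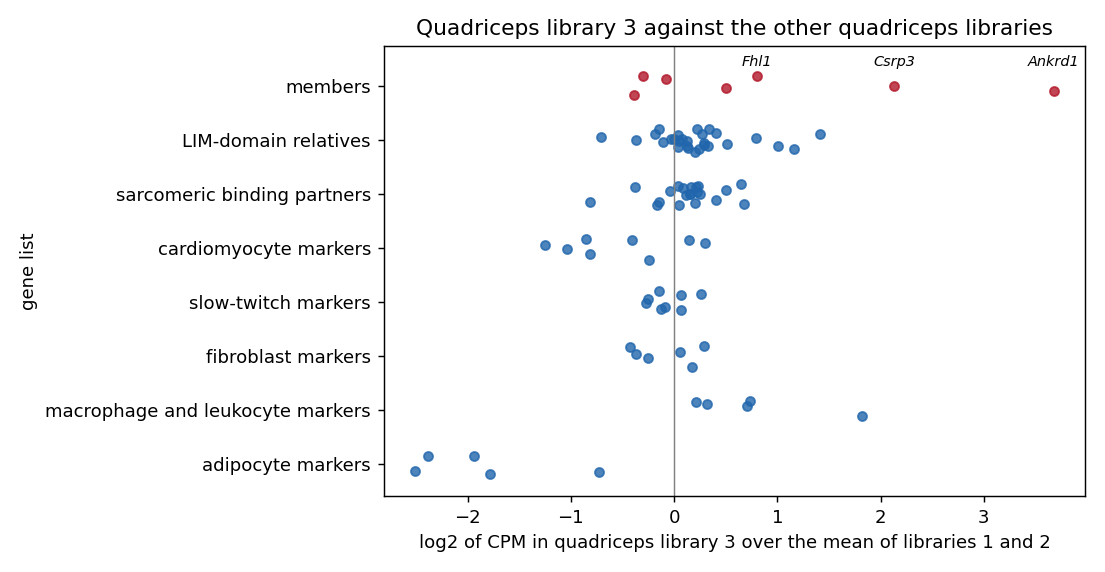
Log2 of CPM in quadriceps library 3 over the mean of quadriceps libraries 1 and 2 (horizontal axis) for each gene of the members and 7 listed groups, 1 point per gene with vertical jitter. Ankrd1 at 3.68 and Csrp3 at 2.13 lie to the right of every other point shown, while the adipocyte markers lie to the left of 0.

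Among the hearts, library 3 had the lowest Ankrd1, 0.54 below the mean of the other hearts on the log2 scale. Csrp3 was 0.17 lower and Ankrd23 0.21 lower there, and Fhl2 0.16 higher. Nppa, the atrial natriuretic peptide gene, was 1.20 lower in the same heart library, and Myl7, the atrial myosin light chain gene, had 2075, 164 and 3 counts in heart libraries 1 to 3. The other 6 cardiomyocyte markers differed there by -0.23 to 0.05. Whether the heart libraries differ in their content of atrium was not tested.

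The transcripts of a member gave nearly the same fold change, since reads on shared exons were counted on each. Over the 4 Fhl1 transcripts the log2 fold change was 3.82 to 3.87, and it was -2.97 and -2.95 for the Csrp3 transcripts and 2.35 and 2.41 for those of Ankrd23. For Fhl2 it was -8.90 and -8.64. The count of one transcript over another, looked at after the data were seen, reflects their unshared exons. The Fhl1 transcript NM_001077362 exceeded NM_001287800 by 461, 348 and 520 counts in the quadriceps, or 2.26, 2.33 and 2.46%. In the hearts it exceeded it by 2, 8 and 4 counts, or 0.0752, 0.251 and 0.152%. The tissues did not overlap in the excess. The window printed above for Fhl1 lies before the first exon of NM_001077362, and which exon carries the excess was not tested.

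For Fhl2, NM_001289533, which begins at the upstream start, exceeded NM_010212 by 3009, 3580 and 3191 counts in the hearts, or 14.2, 15.1 and 14.5%. In the quadriceps the difference was -1, -3 and 0 counts. With 16 to 41 counts in a quadriceps library, an excess of the size seen in the heart was not resolvable there. The excess of the Csrp3 transcript NM_001198841 over NM_013808 was 2.86 to 3.04% in the hearts and 1.71 to 1.75% in the quadriceps. For Ankrd23, NM_153502 exceeded NM_001310521 by 15.4 to 16.1% in the hearts and 10.4 to 12.2% in the quadriceps. Several annotated genes overlap the members in GENCODE, namely the small nuclear RNA Gm23258 inside Fhl1, the pseudogene Gm8210 inside Fhl2 and the read-through gene Gm42417 at Ankrd23. Strand use in counting is not given in the sources used here, so reads of overlapping genes cannot be told apart.

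For each member, the 3 genes closest in level over the 6 libraries were found by Euclidean distance of log2(RPKM + 1) among 14906 genes. Those of Csrp3 were Hspb7 (distance 2.09), a small heat shock protein gene, S100a1 (2.38), which encodes a calcium-binding protein of muscle, and Myoz2 (2.51), which encodes the Z-disc protein calsarcin-1. Hspb7 had 63.9, 58.3 and 155 RPKM in quadriceps libraries 1 to 3, so it was also highest in library 3. Myoz2 had 49.0, 41.7 and 45.3 RPKM and was not.

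Fhl1 was closest to Rtn2 (distance 1.03), a reticulon gene, Klhl41 (1.06), which encodes a sarcomere-associated kelch protein, and Myot (1.43), which encodes the Z-disc protein myotilin. The nearest genes to Fhl2 were Nppa (1.20), Mybpc3 (1.39), which encodes cardiac myosin-binding protein C, and Myzap (2.38), which encodes an intercalated disc protein. Mybpc3 had a mean of 667 RPKM in the heart and 0.0257 RPKM in the quadriceps, beside 503 and 0.617 RPKM for Fhl2. Fhl3 was closest to Gpd2 (0.49), which encodes mitochondrial glycerol-3-phosphate dehydrogenase, Thbs4 (0.68), which encodes a thrombospondin, and Cpeb1 (0.81), which encodes a translational regulator.

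Ankrd1 had no close neighbour on this scale. Its nearest genes were Atp2a2 (distance 3.18), which encodes the SERCA2 calcium pump, Csrp3 (4.07) and Adprhl1 (4.36). Atp2a2 had 19.3, 21.6 and 21.0 RPKM in the quadriceps, without the high value of Ankrd1 in library 3. Ankrd2 was closest to Tbx15 (0.48), which encodes a T-box factor, and to Ryr1 (0.54) and Jsrp1 (0.72), which encode the skeletal calcium release channel and a protein of the junctional sarcoplasmic reticulum. Ankrd23 was closest to Pygm (0.89), Eno3 (1.39) and Pfkm (1.74), which encode the muscle forms of glycogen phosphorylase, enolase and phosphofructokinase. Pygm had a mean of 253 RPKM in the heart and 591 RPKM in the quadriceps, beside 264 and 798 RPKM for Ankrd23.

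Of 29 listed LIM-domain relatives, 28 were tested, 8 were higher in the quadriceps, 12 were lower and 8 did not pass (edgeR's quasi-likelihood test, Benjamini-Hochberg over all transcripts). The median log2 fold change was -0.18, against -0.06 for all tested transcripts. Of all tested transcripts 32.2% were higher and 34.4% lower, the background for this list and those below. Scaled by library totals, 7 were higher and 17 lower. Pdlim3, which encodes the actinin-associated LIM protein of the Z-disc, had 390, 339 and 268 counts in the hearts and 5680, 7763 and 10572 in the quadriceps, a log2 fold change of 5.74 (SE 0.39). Pdlim7, which encodes enigma, had a log2 fold change of 3.30 (SE 0.19). Crip2, a cysteine-rich LIM protein gene of heart and vessels, had 9861 to 11057 counts in the hearts and 73 to 88 in the quadriceps (log2 fold change -5.97, SE 0.19). Pdlim4 had a log2 fold change of -3.86 (SE 0.21). For these 4 genes the adjusted p ranged from 1.05e-08 to 1.52e-06 in edgeR.

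Of 21 sarcomeric binding partners and Z-disc neighbours, 15 were higher in the quadriceps, 5 were lower and 1, Trim55, did not pass, with a median log2 fold change of 1.10. Scaled by library totals, 10 were higher and 6 lower. Actn3, which encodes the alpha-actinin of fast fibres, had 3, 4 and 1 counts in the hearts and 87745, 130518 and 90196 in the quadriceps. Myoz3, a calsarcin gene, had no count in the hearts and 3147, 4027 and 2922 counts in the quadriceps, at least 2334-fold higher than a floor of 3 counts per heart library. Mybpc3 had 81657 to 112285 counts in the hearts and 1 to 5 in the quadriceps, and Nebl, which encodes the cardiac nebulin relative nebulette, had 1749 to 2220 and 0 to 4. Of the known titin-side partners of the ankyrin repeat proteins, Ttn had a log2 fold change of 1.56 and Capn3, the gene of calpain 3, of 5.06. Tcap, the gene of telethonin, had 2.37. Those 3 genes are named after their values were seen.

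The YAP-TEAD pathway, which signals stiffness and stretch to MCAT elements, had 19 tested genes, of which 6 were higher in the quadriceps, 12 were lower and 1, Stk4, did not pass. The median log2 fold change was -0.58, and 4 were higher and 13 lower with library totals. Leaving out single libraries gave 9 to 11 lower. Vgll2, a skeletal muscle cofactor of TEAD, had 38, 95 and 35 counts in the hearts and 631, 567 and 617 in the quadriceps (log2 fold change 4.52, SE 0.32; edgeR, adjusted p = 1.81e-06). Tead4, a TEAD factor gene, had a log2 fold change of 2.47 (SE 0.18). Ccn2, a known YAP target gene that encodes connective tissue growth factor, had 3127, 2177 and 1978 counts in the hearts and 423, 275 and 206 in the quadriceps (log2 fold change -2.0, SE 0.19; edgeR, adjusted p = 1.30e-05). Amotl2 had a log2 fold change of -1.56 (SE 0.19).

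The calcineurin-NFAT pathway, in which Csrp3 is known to take part at the Z-disc, had 5 of 13 tested genes higher in the quadriceps, 5 lower and 3 that did not pass, with a median log2 fold change of -0.17. With library totals, 4 were higher and 8 lower. The catalytic subunit genes Ppp3ca and Ppp3cb had log2 fold changes of 2.48 (SE 0.10) and 2.39 (SE 0.11). Rcan2, which encodes a calcineurin regulator, had 16307 to 18603 counts in the hearts and 1538 to 2492 in the quadriceps (log2 fold change -2.07, SE 0.10; edgeR, adjusted p = 2.12e-07). Akap5, an anchoring protein gene, had -1.87 (SE 0.33; edgeR, adjusted p = 0.000724).

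Of SRF and 4 cofactors, 2 were higher in the quadriceps, 2 were lower and Srf itself did not pass (median log2 fold change -0.22). Myocd, which encodes the cardiac and smooth muscle cofactor myocardin, had 1447, 1534 and 1127 counts in the hearts and 5, 2 and 1 in the quadriceps. Hopx had 2444 to 3910 counts in the hearts and 8 to 23 in the quadriceps (log2 fold change -6.55, SE 0.26; edgeR, adjusted p = 4.75e-08). Mrtfa had a log2 fold change of 1.19 (SE 0.13; edgeR, adjusted p = 3.07e-05). Mrtfb had 0.38 (SE 0.11; edgeR, adjusted p = 0.0139), but with library totals its direction flipped to -0.37 (adjusted p = 0.0181), and the list then had 1 higher and 4 lower. Without heart library 3, only 1 gene of this list was higher.

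**Figure D5:**
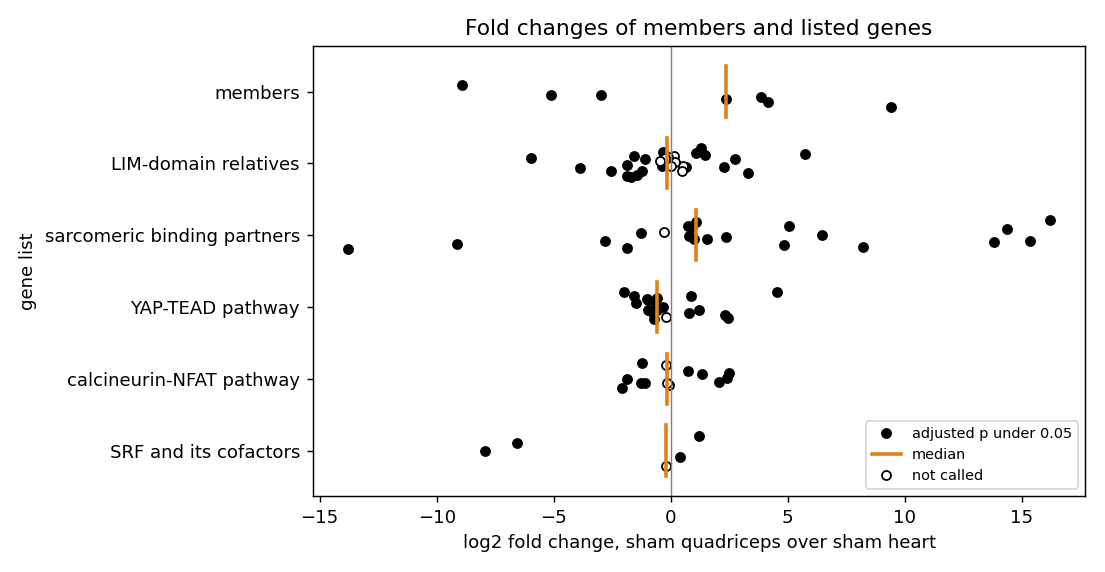
Log2 fold change (sham quadriceps over sham heart, horizontal axis) of the 7 members and of each tested gene in 5 listed groups, with filled points for adjusted p under 0.05 in edgeR, open points for genes that did not pass, and bars for medians. The members lie between -8.90 and 9.41 with no point between -2.97 and 2.35, and the sarcomeric partners have the highest list median, 1.10.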

How the data were processed

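The authors used Trim Galore to trim single-end reads, STAR to align to the mm10 build and Rsubread to count reads on each RefSeq transcript. The deposited table holds raw counts and RPKM per library, the latter equal to the counts per transcript length and library total. The authors' own fold changes and p-values in the table were not used. The members and all gene lists were chosen with earlier results of these data known. Counts of 6 libraries were fitted with edgeR 4.0.16 in R 4.3.3 (TMM scaling, quasi-likelihood test, Benjamini-Hochberg adjustment over 24280 transcripts that had over 5 counts in 2 libraries or more). The SE is the log2 fold change over the square root of the F statistic. A gene is represented by its transcript of highest mean count. Named genes are the members, the 2 largest rises and 2 largest falls called in each pathway list, the 3 nearest genes of each member, and Myh6 and Myh4. Others were chosen after their values were seen. Shares within families used exact permutation tests (Python 3.11.15). Alternatives used DESeq2 1.42.0 and limma 3.58.1. Library 3 ratios add 0.1 CPM. The fit was checked on simulated data in which few transcripts changed, so the scaling between tissues this different was not checked by it. The protocol labels name quadriceps for every library, and heart libraries are identified by tissue label. Gene positions come from GENCODE vM21 (GRCm38), and promoter windows from RefSeq (GRCm38.p6), both the assembly of mm10. All 7 symbols matched the promoter table.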

Additional observations from a re-analysis of the deposited data

How the results depend on the processing

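Every member kept its direction and its adjusted p under 0.05 in each alternative that tested it, and no share within a family changed direction. Over the alternatives the largest adjusted p of a member was 0.0042, for Ankrd1. Ankrd2 was not tested with at least 10 counts in every library, because its heart counts are lower. Leaving out single libraries gave log2 fold changes from -4.04 to -2.58 for Csrp3 and from -7.39 to -4.60 for Ankrd1, the low ends without quadriceps library 3. With limma on log2(RPKM + 1), Ankrd2 had 5.90, since a pseudocount shrinks the fold of a gene near 0. Library totals gave 3240 higher and 15203 lower transcripts, beside 7828 and 8354 with TMM. Library totals and limma on log2(RPKM + 0.5), log2(RPKM + 0.1) and log2(RPKM + 1) each gave 8 lower calcineurin-NFAT genes, and 1 higher and 4 lower genes among SRF and its cofactors. For the last list, at least 10 counts in every library left 0 lower, with Myocd and Hopx no longer tested, and leaving out single libraries gave 1 to 2 higher. The remaining 146 list counts stayed within 1.5 times. Deviations of same-numbered heart and quadriceps libraries correlated at 0.055, -0.053 and 0.035, and not every library correlated best with its own number. With the replicate block the members had the same calls, Ankrd1 had -6.34 and Csrp3 -3.39, and 7541 transcripts were higher and 8175 lower. Paired by number, no share within a family could go below an exact p of 0.25. With 3 libraries a tissue, the spread of Ankrd1 and Csrp3 in quadriceps rests on library 3, and the low counts limit Ankrd2 in heart and Fhl2 in quadriceps.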
